A study of Mus musculus with 24 samples.

Results

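Klf4 is a zinc finger transcription factor that helps to keep mouse embryonic stem cells in the naive pluripotent state, and acetylation of lysine 27 on histone H3 (H3K27ac) marks active promoters and enhancers. In mitosis chromosomes condense and most transcription stops, and factors or marks that stay on mitotic chromatin are often called bookmarks. Here the mitotic binding sites of Klf4 were set against the mitotic H3K27ac regions of the same project. The lists were the 2 Klf4 and 2 H3K27ac peak lists of mitotic cells whose titles start with EC-DG-3514, taken as a project code. A mitotic Klf4 site was a merged region with a peak in both Klf4 lists, and a mitotic H3K27ac region was one with a peak in both H3K27ac lists. This gave 1905 Klf4 sites out of 7472 merged Klf4 regions, and 23007 H3K27ac regions out of 38459. The 4 lists belong to a series of 17 lists with 248259 peaks in all.

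The cells were V6.5, a C57BL/6-129 mouse embryonic stem cell line, expanded on gelatin with a MEK1 inhibitor and a Gsk3 inhibitor after culture on irradiated feeder cells with LIF and serum. Mitotic cells were collected by shake-off after 7 h in nocodazole, which blocks spindle assembly. The labels give its dose as 100 ug/ml, which could not be checked. Cells were fixed in 1% formaldehyde for 10 min before chromatin immunoprecipitation and sequencing of single reads of 50 nt. Other lists used below are those of asynchronous (untreated, cycling) cells for Klf4 (3 lists of 3 projects) and H3K27ac (2 lists of project EC-DG-3458), and of mitotic cells of project EC-EA-3702 for Klf4 (1 list), Oct4 and Sox2 (2 lists each), pluripotency factors of the POU and HMG box families. Every list comes from 1 library, and no label says whether replicate libraries came from separate cultures. The purity of the mitotic cells is not in the files, and H3K27ac of mitotic and of asynchronous cells came from different projects, so that state and project cannot be told apart for that mark.

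The Klf4 lists held 5754 and 3795 peaks, and the H3K27ac lists held 36526 and 30771. Read depth was not given, so the length of a list is the only sign of yield. Replication differed between the antibodies: 25.5% of merged Klf4 regions and 59.8% of merged H3K27ac regions had a peak in both lists. Across sites in both lists, the fold of enrichment in list 1 followed that in list 2 loosely for Klf4 (Spearman's rho 0.31 over 1905 sites) and closely for H3K27ac (0.81 over 23007 regions). These correlations are across regions, which are not replicates. The 4 lists of project EC-DG-3514 had larger shares of peaks on chromosome 8 than the other lists of the same antibody. The share was 9.30% and 9.72% in the Klf4 lists, against 5.12%, 5.42% and 6.93% in the asynchronous Klf4 lists, 6.36% in the mitotic Klf4 list of project EC-EA-3702 and 7.57% in a Klf4 list of a mix of 10% stem cells. For H3K27ac it was 6.36% and 6.56%, against 4.82% and 4.85% in asynchronous cells, though within the range of lists of other antibodies. The cause was not tested. Each main result was therefore also computed without chromosome 8, and none of the 10 main values changed by as much as 10% of its size.

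Of the mitotic Klf4 sites, 1332 (69.9%, Wilson 95% interval 67.8 to 71.9) overlapped a mitotic H3K27ac region. A further 144 (7.56%) met only merged H3K27ac regions with a peak in 1 list, and 429 (22.5%) met no H3K27ac peak in either list. The classes rest on merged regions, and a region in both lists could have the peak of only 1 list at the site itself. The single lists gave lower and closely matched shares. Of the peaks of Klf4 list 1, 61.1% overlapped H3K27ac list 1 and 58.9% overlapped H3K27ac list 2. For Klf4 list 2 the shares were 58.9% and 58.0%. Counting every merged Klf4 region with a peak in either list, and H3K27ac likewise, the share was 62.4%. With the Klf4 midpoint required to lie inside the H3K27ac region it was 61.3%. All intervals on shares cover counting error only, and regions of 1 library are not replicates of a condition. With 2 lists on each side no p below 0.05 could be reached, so shares below are set beside the values of the single lists without a test.

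In the other direction the share was small, and the sizes of the sets limit it. There were 1905 Klf4 sites for 23007 H3K27ac regions, so most regions could not hold a site. Of the mitotic H3K27ac regions, 1358 (5.90%, 5.61 to 6.21) held a mitotic Klf4 site. Another 2466 (10.7%) met only merged Klf4 regions with a peak in 1 list, and 19183 (83.4%) met no Klf4 peak. The share with a Klf4 site varied with the lists used. It was 13.9% without Klf4 list 2, 8.63% without Klf4 list 1, 11.5% when a peak in either list was enough for both antibodies, and 0.460% when only peaks with a −log10 q of at least 5 were used, a filter that left 109 Klf4 sites and 16319 H3K27ac regions. The last 2 settings changed the sets of both antibodies. Most regions with Klf4 held a single site: 1309 held 1, 45 held 2, and 4 held 3. In 82.8% of the 1411 pairs of an overlapping site and region the Klf4 midpoint lay inside the H3K27ac region, and in 57.2% it lay closer to the region's centre than to its edge.

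**Figure D1:**
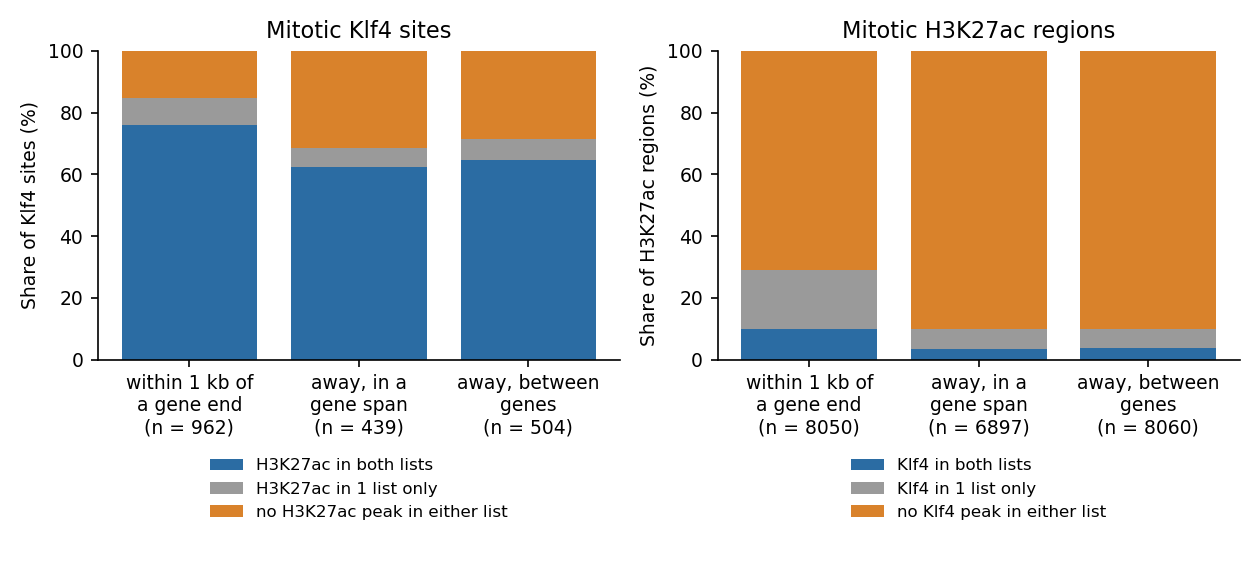
Share of mitotic Klf4 sites (left) and of mitotic H3K27ac regions (right) by overlap with the other antibody and by position relative to genes. The classes are overlap with a merged region that has a peak in both lists, only with merged regions of 1 list, or with no peak. The vertical axes are percentages and n is the number of sites or regions. H3K27ac was at 76.1% of Klf4 sites within 1 kb of a gene end and at 62.4% and 64.7% of those farther away, and Klf4 was at 10.1% of H3K27ac regions within 1 kb of a gene end against 3.52% and 3.76% farther away.

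Klf4 sites with H3K27ac lay near gene ends more often than those without. A region counted as near a gene end when it lay within 1 kb of an annotated transcription start or, for genes whose start was not listed, of either end of the gene. Of the Klf4 sites with H3K27ac, 55.0% (52.3 to 57.6) were near a gene end, against 34.3% (29.9 to 38.9) of those without. In the single lists the shares were 55.5% against 24.8% (list 1) and 56.1% against 26.6% (list 2). The difference of 20.7 percentage points became 11.5 when the midpoint had to lie inside the H3K27ac region, and it was 17.3 within quintiles of site width. Away from gene ends H3K27ac was still at more than 60% of Klf4 sites, as the plot of shares by position shows. Sites over 20 kb from any gene end made up 22.4% of those with H3K27ac and 34.5% of those without.

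The promoter windows allow the Klf4 recognition sequence to be read at part of these sites. Klf factors bind GC-rich and CACCC-type elements through their zinc fingers. The letters searched were GGGNGTG and their complement on either strand, in RefSeq windows of build GRCm38.p6 (mm10) from 250 bases before to 50 after each start. Of 786 windows overlapped by a Klf4 site with H3K27ac, 55.7% (52.2 to 59.2) held the motif. Of 136 windows overlapped by a Klf4 site without any H3K27ac peak, 75% (67.1 to 81.5) held it. The share was 30.7% of 6523 windows with H3K27ac and no Klf4 peak, 25.6% of 22293 windows with neither, and 29.2% of all 32851 windows. Windows of a gene with several starts overlap, and with 1 window per gene, an alternative chosen after seeing the data, the shares were 56.9% of 647 and 74.6% of 118. At least 2 matches were present in 23.0% of the windows of the first class, 41.9% of the second and 7.55% of all.

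GC content differed little between the 2 Klf4 classes, with medians of 66.7% and 66.2%, against 61% at windows with H3K27ac alone and 49% at windows with neither. Median CpG counts per window were 28 with H3K27ac, 24 without it, 22 for H3K27ac alone and 4 for neither. With all windows split into 4 equal bins of GC content, in the richest bin the motif was in 57.5% of windows with Klf4 and H3K27ac, 72.8% with Klf4 alone, 36.4% with H3K27ac alone and 43.7% with neither. The order of the 2 Klf4 classes was the same in the bin below it, at 52.6% of 175 windows against 82.8% of 29. A match is a description of the letters and does not show which base Klf4 contacted.

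**Figure D2:**
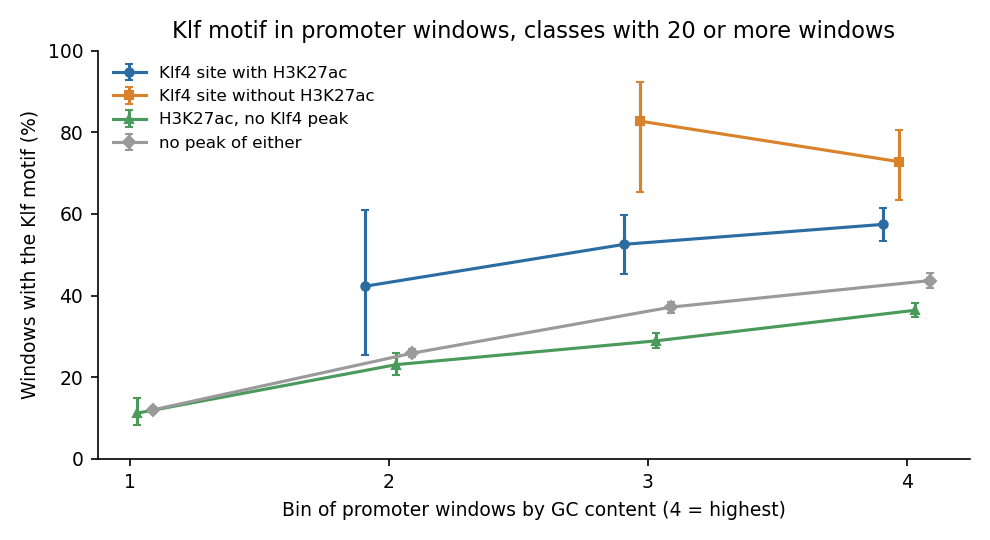
Share of promoter windows holding the Klf motif (vertical axis, percent, with Wilson 95% intervals) by bin of GC content, bin 4 being the richest (horizontal axis), for windows with a mitotic Klf4 site with or without mitotic H3K27ac, with H3K27ac only and with neither; classes under 20 windows in a bin are not drawn. In the 2 richest bins both Klf4 classes lie above the windows without Klf4, and Klf4 sites without H3K27ac lie highest, at 82.8% and 72.8%.

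The sequences below are the 250 bases before the start, on the gene's strand, of promoters whose Klf4 sites are described next. They were taken because their windows hold the motif, which is in capitals. Iqgap1, encoding a scaffold protein of the cell cortex, and Afg3l1, encoding a mitochondrial protease, have Klf4 sites that overlap mitotic H3K27ac. The Klf4 sites at Ugdh, encoding UDP-glucose dehydrogenase, and Usp12, encoding a deubiquitinase, overlap none, although at Usp12 a mitotic H3K27ac region lies 0.192 kb from the site. Nanog and Nr5a2 encode transcription factors of naive pluripotency.
Iqgap1 promoter, chr7:80803332-80803581, minus strand: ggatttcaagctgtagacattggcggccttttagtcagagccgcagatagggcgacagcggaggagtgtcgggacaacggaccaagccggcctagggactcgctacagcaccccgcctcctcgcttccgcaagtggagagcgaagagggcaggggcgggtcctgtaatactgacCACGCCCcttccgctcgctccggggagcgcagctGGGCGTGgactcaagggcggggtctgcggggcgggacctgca
Afg3l1 promoter, chr8:123477612-123477861, plus strand: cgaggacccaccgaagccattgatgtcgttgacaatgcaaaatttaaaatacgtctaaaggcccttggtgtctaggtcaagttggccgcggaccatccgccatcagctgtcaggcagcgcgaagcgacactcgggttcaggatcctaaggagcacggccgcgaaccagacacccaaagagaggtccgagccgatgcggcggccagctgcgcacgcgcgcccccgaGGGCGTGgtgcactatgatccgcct
Ugdh promoter, chr5:65435843-65436092, minus strand: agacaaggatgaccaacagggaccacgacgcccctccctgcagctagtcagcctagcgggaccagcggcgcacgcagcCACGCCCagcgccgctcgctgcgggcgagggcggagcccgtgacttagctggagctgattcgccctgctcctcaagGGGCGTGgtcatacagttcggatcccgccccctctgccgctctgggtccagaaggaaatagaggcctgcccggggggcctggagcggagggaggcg
Usp12 promoter, chr5:146794957-146795206, minus strand: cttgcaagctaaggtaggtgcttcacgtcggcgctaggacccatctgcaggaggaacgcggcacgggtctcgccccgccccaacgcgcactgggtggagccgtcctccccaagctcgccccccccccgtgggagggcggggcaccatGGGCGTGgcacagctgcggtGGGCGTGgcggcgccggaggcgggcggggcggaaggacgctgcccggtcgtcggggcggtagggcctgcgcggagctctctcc
Nanog promoter, chr6:122707239-122707488, plus strand: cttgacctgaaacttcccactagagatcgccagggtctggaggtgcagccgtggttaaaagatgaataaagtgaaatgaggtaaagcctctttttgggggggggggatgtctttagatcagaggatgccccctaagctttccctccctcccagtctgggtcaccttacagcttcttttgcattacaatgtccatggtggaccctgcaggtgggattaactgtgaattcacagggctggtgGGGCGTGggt
Nr5a2 promoter, chr1:136953631-136953880, minus strand: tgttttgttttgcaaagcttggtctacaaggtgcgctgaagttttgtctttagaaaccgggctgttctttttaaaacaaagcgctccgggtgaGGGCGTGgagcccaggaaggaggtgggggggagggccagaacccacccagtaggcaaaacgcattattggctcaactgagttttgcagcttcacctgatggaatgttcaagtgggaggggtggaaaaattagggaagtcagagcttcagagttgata
Ugdh and Usp12 each hold 2 matches, as Iqgap1 does. The strongest Klf4 promoter site with H3K27ac, at Kmt2a, has a window with no match and 75.7% GC.

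Strength was taken as the percentile of a site's fold within its list, averaged over both lists, since folds of different lists are not on a common scale. Median Klf4 strength was 62.8 at sites with H3K27ac and 54.7 at sites without, a difference of 8.10. The single lists disagreed: 23.9 in list 1 and 0 in list 2, where many peaks share the same fold, a spread (SD 16.9, n = 2) larger than the difference. Ranked by −log10 p the difference was 2.36, and within quintiles of width it was 3.31. Klf4 strength was thus not separated from the spread between lists. Sites with H3K27ac were wider, with a median of 430 bp against 366, and wider sites can meet another peak more often by construction. H3K27ac was at 57.5% of Klf4 sites in the narrowest of 5 quintiles and 84.5% in the widest. By strength it was at 63.3% in the weakest quintile and 76.4% in the strongest.

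For H3K27ac the difference was larger, and the single lists were closer to each other. Regions with Klf4 had a median strength of 80.7 and those without 59.3, a difference of 21.4. The single lists gave 31.9 and 30.3 (SD 1.14, n = 2), counting all peaks of each list. That SD is of the single-list values, on the same Klf4 sites, and does not measure the spread of the 21.4. Regions with Klf4 were also wider, with a median of 2026 bp against 1292, and wider regions can meet another peak more often by construction. Strength and width of H3K27ac regions went together (Spearman's rho 0.70 across regions), and within quintiles of width the difference was 6.65. Klf4 was at 3.19% of H3K27ac regions in the weakest quintile and at 12.1% in the strongest. By width the share was between 3.72% and 4.98% in the 4 narrower quintiles and 13.1% in the widest. Of the H3K27ac regions with Klf4, 59.8% were near a gene end against 29.8% of those without, with 58.6% and 24.7% in list 1 and 58.6% and 26.0% in list 2. That difference of 30.0 points was 1.29 under the stricter q filter, where few regions with Klf4 remained, and 33.2 within quintiles of width. Among the 1332 Klf4 sites inside H3K27ac, Klf4 strength and H3K27ac strength had a Spearman's rho of 0.12, a description across sites of shared libraries.

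**Figure D3:**
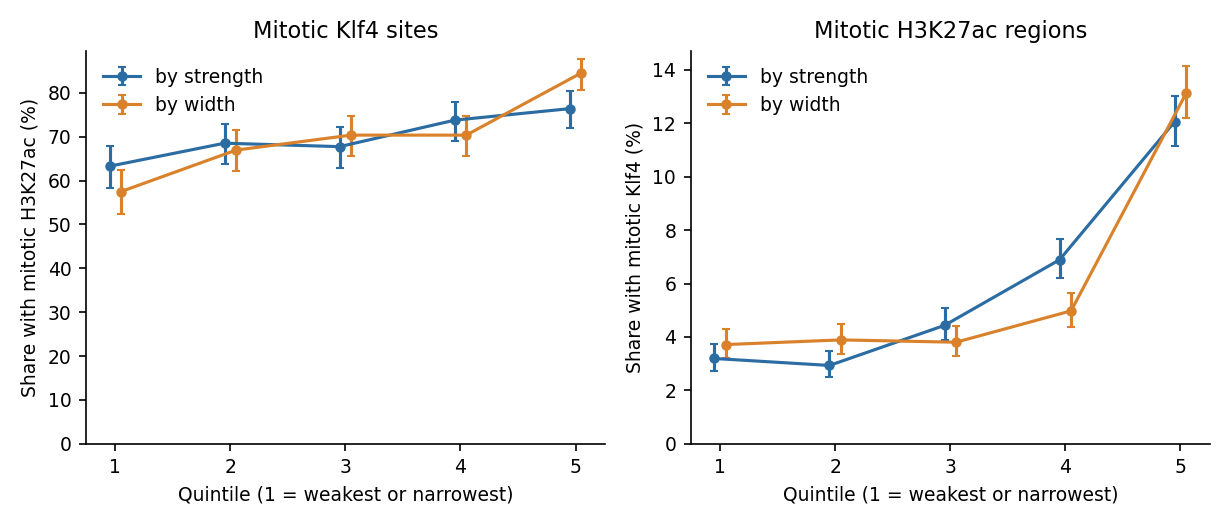
Share of mitotic Klf4 sites with H3K27ac (left) and of mitotic H3K27ac regions with Klf4 (right) in quintiles by strength (blue) and by width (orange), with Wilson 95% intervals; the vertical axes are percentages and start at 0. The share of Klf4 sites with H3K27ac goes from 57.5% in the narrowest to 84.5% in the widest quintile, and the share of H3K27ac regions with Klf4 reaches 13.1% in the widest quintile.

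The strongest Klf4 sites show what the classes look like at single loci. Near gene ends with H3K27ac the 5 strongest were at Kmt2a (a histone H3 lysine 4 methyltransferase), Hdac4 (a class IIa histone deacetylase), Iqgap1, Afg3l1 and Ass1 (argininosuccinate synthase). The Kmt2a site, chr9:44881202-44881840, had folds of 16.8 and 13.5 in the Klf4 lists, 7.31 in the mitotic list of project EC-EA-3702 and 16.2, 12.3 and 8.09 in the asynchronous lists. The strongest overlapping H3K27ac peaks there had folds of 5.75 and 4.90 in mitosis and 15.5 and 11.7 in asynchronous cells. The Hdac4 site, chr1:92180240-92181221, had Klf4 folds of 11.4 and 11.1 and H3K27ac folds of 18.6 and 21.4 in mitosis. The Kmt2a and Hdac4 promoters thus had nearly equal ranks for Klf4, at 100.0 and 99.7, and H3K27ac peaks of different height in each mitotic list.

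Away from gene ends with H3K27ac the strongest sites lay nearest to Cd9 (a tetraspanin), Rab29 (a small GTPase), Ddx60 (a helicase), Tpcn2 (an endolysosomal channel) and Cdyl2 (a chromodomain protein). These are names of the nearest gene within 50 kb and say nothing of a target. The site 26.1 kb from Cd9, chr6:125433398-125434165, had Klf4 folds of 15.9 and 10.1. It also had mitotic peaks of Oct4 (folds 5.71 and 4.93) and Sox2 (6.50 and 7.01). The site near Rab29, chr1:131890066-131890674, had Klf4 folds of 14.9 and 10.1, Oct4 folds of 6.14 and 9.64 and Sox2 folds of 10.0 and 6.80. None of the 5 promoter sites named above had an Oct4 or Sox2 peak in a mitotic list, and 4 of the 5 distant ones had at least 1. Over all mitotic Klf4 sites, 14.4% had a peak in at least 1 Oct4 list and 16.6% in at least 1 Sox2 list. Among the strongest sites without H3K27ac, described next, only those at Adap1 (near a gene end, Oct4) and Pcolce2 (away, Sox2) had such a peak.

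Among sites with no mitotic H3K27ac peak, the 5 strongest near gene ends were at Prph (the intermediate filament protein peripherin), Ugdh, Adap1 (an Arf GTPase activating protein), Ndrg1 and Usp12. The Prph site, chr15:99056129-99056692, had Klf4 folds of 13.0 and 7.41, and no H3K27ac peak in either asynchronous list. The other 4 had H3K27ac peaks in both asynchronous lists. At Adap1, chr5:139325559-139326145, the asynchronous folds were 23.6 and 23.3, and the nearest mitotic H3K27ac region lay 0.167 kb away. At Usp12, chr5:146794849-146795229, they were 7.48 and 13.5, with the nearest mitotic region 0.192 kb away. At Ugdh, chr5:65435689-65436261, they were 4.06 and 6.08, and at Ndrg1, chr15:66969458-66970000, they were 5.89 and 6.80. For these the nearest mitotic regions were 43.6 and 101.2 kb away. The class without H3K27ac therefore held sites beside a region as well as sites far from any.

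The 5 strongest sites without H3K27ac away from gene ends lay nearest to Nfkbia (the NF-kappaB inhibitor alpha), Map3k6 (a kinase), Grap (an adaptor protein), Pcolce2 and Grin1 (an NMDA receptor subunit). The site near Grap, chr11:61620317-61620765, had Klf4 folds of 10.6 and 11.5 in the lists of project EC-DG-3514 and 28.2 in the mitotic list of project EC-EA-3702. Its asynchronous H3K27ac folds were 5.30 and 6.80. The Map3k6 site, chr4:133250601-133251035, and the Grin1 site, chr2:25292772-25293165, had no H3K27ac peak in any of the 4 lists. Their Klf4 folds were 11.5 and 9.44, and 9.62 and 8.76. All 20 Klf4 sites named by strength had a peak in the mitotic list of project EC-EA-3702 and in all 3 asynchronous lists. These 20 were picked for high folds. Over all 1905 mitotic Klf4 sites the shares were 77.9% in that mitotic list and 78.7%, 93.6% and 92.1% in the asynchronous lists.

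Over all 429 sites without mitotic H3K27ac, the median distance to the nearest mitotic H3K27ac region was 22.5 kb, with quartiles of 7.83 and 54.8 kb. Of these sites 43 lay within 1 kb of a region and 49 over 100 kb from any. Only 6 had regions on both sides within 1 kb. These distances are to regions with a peak in both H3K27ac lists. Widening every H3K27ac region by 500 bp on each side raised the share of Klf4 sites with H3K27ac to 72.3%. With regions of either list so widened, the sites that met none went from 429 to 342. Most sites of the class were thus not at the edges of the called regions.

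Lists that took no part in defining the classes were then read at the same sites. In the mitotic Klf4 list of project EC-EA-3702, 80.9% (78.7 to 83.0) of sites with H3K27ac had a peak, against 70.9% (66.4 to 74.96) of sites without. This difference of 10.1 points was 16.0 without Klf4 list 2 and 22.5 without Klf4 list 1, and 6.73 within quintiles of strength. In asynchronous cells the 3 Klf4 lists had a peak at 80.3%, 95.3% and 92.1% of sites with H3K27ac. At sites without, they had one at 73.4%, 88.3% and 91.8%. A peak in at least 2 of the 3 was present at 94.4% and 89.7%, a difference of 4.70 points that was 17.6 without Klf4 list 2 and 25.9 without Klf4 list 1. Both differences were thus larger when all peaks of a single Klf4 list were taken than over sites in both lists. Only 17 sites with H3K27ac and 8 without had no peak in any asynchronous Klf4 list.

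**Figure D4:**
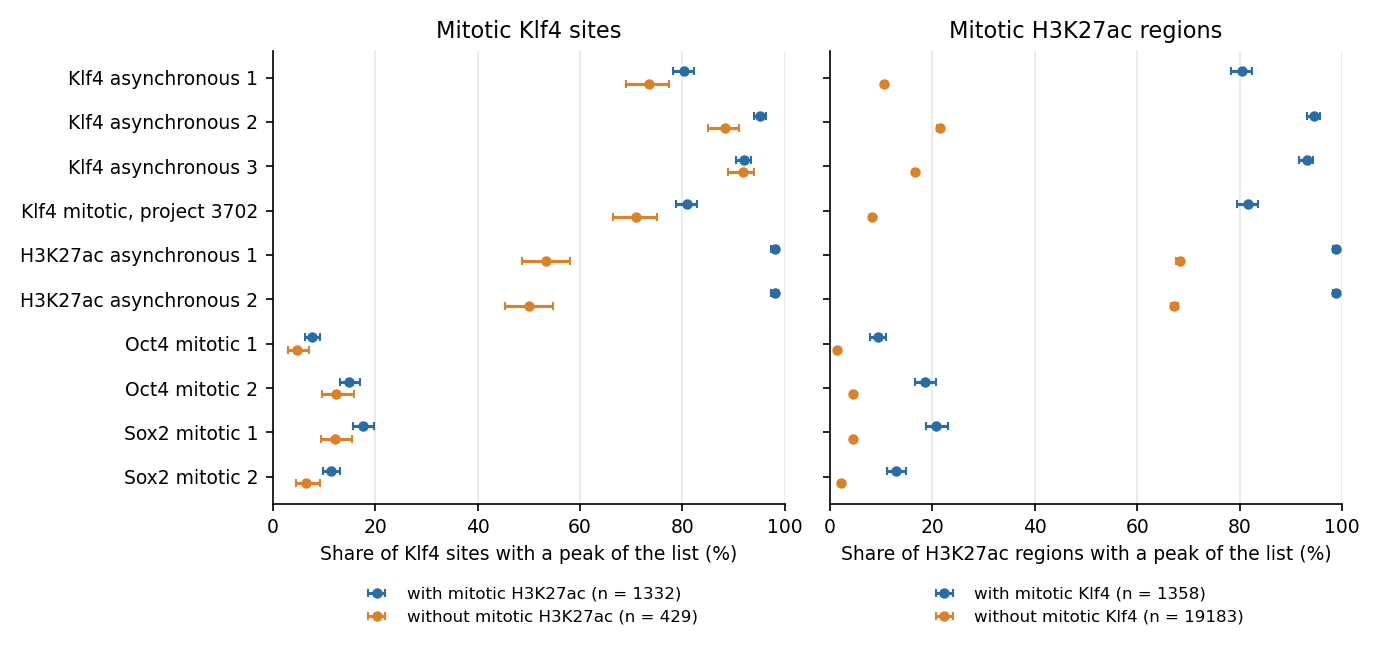
Share of mitotic Klf4 sites (left) and mitotic H3K27ac regions (right) with a peak in each of 10 other lists, for those with (blue) and without (orange) the other antibody in mitosis; the horizontal axes are percentages, bars are Wilson 95% intervals and n is the number of sites or regions. The widest gap at Klf4 sites is for the asynchronous H3K27ac lists (98.2% against 53.4% and 50.1%), and at H3K27ac regions it is for the other Klf4 lists.

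The asynchronous H3K27ac lists separated the Klf4 classes most. Both lists had a peak at 97.4% (1297) of sites with mitotic H3K27ac, and neither had one at 0.976% (13). Of the sites without mitotic H3K27ac, 44.5% (191, interval 39.9 to 49.3) had an asynchronous peak in both lists, 14.5% (62) in 1 list and 41.0% (176) in neither. The class without the mark in mitosis thus held sites that differed in asynchronous H3K27ac. Those with a peak in both asynchronous lists were near a gene end in 40.3% of cases, and those with a peak in neither in 26.7%. They were in the mitotic Klf4 list of project EC-EA-3702 in 72.8% and 65.9%, and had a mitotic Sox2 peak in 16.8% and 8.52%. Median Klf4 strength was 54.7 in both of these groups. For the 62 sites with a peak in 1 asynchronous list the shares were 37.1%, 79.0% and 11.3% in the same order. Their median strength was 59.6, so not every feature followed the number of asynchronous lists. Differences in list length and project between the 2 states of H3K27ac can set these shares, and their part was not tested.

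At H3K27ac regions the asynchronous lists of the mark showed the same direction. Both had a peak at 98.5% of mitotic regions with Klf4 and at 65.3% of those without, a difference of 33.1 points. It was 31.9 within quintiles of width and 31.5 within quintiles of strength. Neither had a peak at 0.663% (9) and 29.8% (5716). Mitotic regions without any mitotic Klf4 peak of project EC-DG-3514 had a peak in at least 2 asynchronous Klf4 lists in 15.3% of cases (2937) and in none of the 3 in 72.3%. In the mitotic Klf4 list of project EC-EA-3702 the shares were 81.6% with Klf4 and 8.10% without, a comparison that repeats the defining antibody in another library.

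The strongest H3K27ac regions with Klf4 lay nearest to Rps6ka1 (a ribosomal S6 kinase), Nemf (a ribosome quality control factor), Sp1 (a zinc finger factor of the Klf and Sp family), Piezo1 (a mechanosensitive channel) and C77080. The region near Rps6ka1, chr4:133896398-133904177, had H3K27ac folds of 48.6 and 48.9 and Klf4 folds of up to 12.5 and 4.72. The Sp1 region, chr15:102397625-102414913, had H3K27ac folds of 55.5 and 44.0 with Klf4 folds of 4.33 and 4.72. The strongest regions without a mitotic Klf4 peak were at Ppp6r3 (a phosphatase subunit), Got1l1, Ccng1 (cyclin G1), Slc25a36 (a mitochondrial carrier) and Rps27l (a ribosomal protein paralogue). The region in Ppp6r3, chr19:3529588-3538632, had H3K27ac folds of 48.6 and 54.2. Its fold in list 2 was above that of every region with a Klf4 site in both lists, the highest of which was 50.2. In list 1 the highest such region, at 55.5, was above it. Regions that met Klf4 of 1 list only reached the highest folds of all, 57.2 and 93.7. The Ccng1 region, chr11:40751777-40757245, had folds of 49.2 and 49.6 and no Klf4 peak in any of the 6 Klf4 lists read. High H3K27ac in mitosis was thus found with and without Klf4.

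The widest mitotic H3K27ac region with Klf4 was 22.8 kb long, at chr7:3198784-3221548. It was also the widest of all 23007. It spans 9 annotated microRNA hairpins of the miR-290 to miR-295 cluster, which is highly expressed in mouse embryonic stem cells. The nearest protein-coding gene is Nlrp12. The region had H3K27ac folds of 17.7 and 18.8 in mitosis and 42.7 and 38.2 in asynchronous cells. A single Klf4 site in both lists, chr7:3206537-3206973, had folds of 4.33 and 4.72, and its end lay 11.7 kb before the first hairpin. These are not high folds: the medians of all peaks were 4.81 in list 1 and 4.72 in list 2. The third asynchronous Klf4 list had no peak at this site. This cluster was singled out after its values were seen. The 3p arms of 6 hairpins on the plus strand are shown because several share a seed, the bases 2 to 8 that pair with targets, here in capitals. Not shown are miR-292a-3p and the 3p arms of miR-290b and miR-292b, which lie on the minus strand and have the seeds AGUGCCC and AGAGCCC.
mmu-miR-290a-3p: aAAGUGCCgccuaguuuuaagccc
mmu-miR-291a-3p: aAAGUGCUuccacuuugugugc
mmu-miR-291b-3p: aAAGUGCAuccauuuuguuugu
mmu-miR-293-3p: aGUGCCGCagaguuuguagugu
mmu-miR-294-3p: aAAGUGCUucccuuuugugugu
mmu-miR-295-3p: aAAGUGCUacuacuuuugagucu
The seed AAGUGCU is common to the 3p arms of miR-291a, miR-294 and miR-295, and those of miR-290a and miR-291b differ from it in their last base. The sequences are those of RefSeq with build GRCm38.p6. Of 1228 microRNA genes in the annotation, 107 overlapped a mitotic H3K27ac region. Among them 20 lay in 12 regions with Klf4, and 9 of these 20 are the hairpins of this cluster. Another 22 lay in regions with a Klf4 peak of 1 list and 65 in regions without. These classes made up 5.90%, 10.7% and 83.4% of all mitotic H3K27ac regions. Hairpins that share a region were counted separately, so the counts of hairpins cannot be compared directly with these shares of regions.

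The other widest regions with Klf4 were those at C77080 and Sp1, at 19.9 and 17.3 kb. The widest without a mitotic Klf4 peak lay in Myo16 (an unconventional myosin), 19.6 kb long, at Dppa5a (a pluripotency-associated RNA-binding protein), 16.9 kb, and in Zscan20 (a zinc finger gene), 15.1 kb. The Myo16 region, chr8:10178294-10197900, had mitotic folds of 12.7 and 13.8 and no H3K27ac peak in either asynchronous list. The Zscan20 region, chr4:128569755-128584855, had mitotic folds of 30.2 and 28.0 and a peak in 1 asynchronous list, at a fold of 4.04. The Dppa5a region, chr9:78362067-78378924, had asynchronous folds of 37.4 and 30.5 and Klf4 peaks in all 3 asynchronous lists and in the mitotic list of project EC-EA-3702, at a fold of 5.57, but in neither list of project EC-DG-3514. Wide acetylated regions without Klf4 were thus of different kinds.

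Genes of naive pluripotency were checked by linking each to sites and regions within 20 kb. Mitotic H3K27ac was near 22 of 25 naive genes (88%), against 56.0% of all 21883 protein-coding genes. It was near 4 of 13 neural progenitor genes, 6 of 14 feeder fibroblast genes and 8 of 19 germ layer regulators, and near all 18 ribosomal protein genes. Klf4 sites with H3K27ac were near 7 naive genes (28%), against 7.73% of all genes, and Klf4 sites without H3K27ac were near none of the 25, against 2.08% of all genes. Those with H3K27ac were at Nanog, Klf2, Zfp42 (Rex1, a zinc finger marker of naive cells), Nr5a2, Tdgf1 (a Nodal co-receptor) and Tet2 (a 5-methylcytosine dioxygenase). Another was at a gene on chromosome 18, which the naming rule left out. Feeder fibroblast genes were also above all genes: 2 of 14 (14.3%) had a Klf4 site with H3K27ac and 2 (14.3%) had one without. Of 13 neural progenitor genes 1 (7.69%) had a site with H3K27ac and none had one without. Lists were chosen with earlier results of these data known, and these counts are descriptions with no test.

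Nanog had 2 Klf4 sites inside a single H3K27ac region of 11.2 kb, chr6:122700794-122711989, with H3K27ac folds of 18.1 and 14.7. The site 4.26 kb from the gene, chr6:122702484-122703229, had Klf4 folds of 6.92 and 5.39. The site at the promoter, chr6:122707269-122707597, had folds of 5.77 and 4.72 and was the weaker in both lists. It had peaks in all 4 mitotic Oct4 and Sox2 lists, the distant site in 1 of them. The Klf2 site, chr8:72334310-72334678, lay 12.7 kb from Klf2 and nearer to another gene, Eps15l1, at 6.31 kb. It had Klf4 folds of 8.66 and 7.38 and peaks in all 4 Oct4 and Sox2 mitotic lists. Zfp42 had a site at its promoter (folds 4.42 and 5.72) and one 13.7 kb away (7.70 and 5.39), in separate H3K27ac regions. The Nr5a2 promoter site, chr1:136953567-136953984, had folds of 5.39 and 9.03. The lists differed in which naive site was strongest: Klf2 in list 1 and Nr5a2 in list 2 among the 6 genes described.

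Pou5f1, Klf4 itself, Klf5, Tfcp2l1 and Tbx3, other regulators of the naive state, had 3, 4, 4, 4 and 7 mitotic H3K27ac regions within 20 kb and no Klf4 site in both lists. Esrrb, Nr0b1 and Gbx2 had no mitotic H3K27ac region in that window. The Klf and Sp family, which shares the CACCC-type motif, had the highest share of the 13 lists. Klf4 sites with H3K27ac were near 7 of its 15 listed genes (46.7%), against 7.73% of all genes. Klf2, Klf4 and Klf5 were counted in the naive list and are not among these 15. The strongest sites were at Klf3, Klf11, Sp3 and Klf13. The site at Klf3, chr5:64802818-64803741, had Klf4 folds of 8.18 and 6.74 and H3K27ac folds of 11.6 and 11.8 in mitosis. The site at Sp3, chr2:72979039-72979734, had Klf4 folds of 6.06 and 6.77 and H3K27ac folds of 19.2 and 21.3. The strongest of the sites at Klf13, chr7:63938815-63939792, had Klf4 folds of 9.14 and 5.39. Klf11 had folds of 4.76 and 6.07 at 1 site and 6.74 and 6.74 at the other.

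Chromatin regulators that write, erase or read acetylation had Klf4 sites with H3K27ac near 4 of 17 genes (23.5%), against 7.73% of all genes. Brd2 encodes a bromodomain reader of acetylated histones. At Brd2 the Klf4 folds were 6.74 and 7.41 and the mitotic H3K27ac folds 29.9 and 29.7. G1 and S phase genes had Klf4 sites with H3K27ac near 4 of 19 (21.1%), with Cdkn1a, a cyclin-dependent kinase inhibitor, the strongest (4.76 and 6.07). Genes of the mitotic machinery had H3K27ac near all 18, against 56.0% of all genes. A Klf4 site with H3K27ac was near 1 of them (5.56%, close to the 7.73% of all genes), Birc5 (survivin), with folds of 6.74 and 4.52.

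None of the 19 germ layer regulators had a Klf4 site of any class within 20 kb, against 10.2% of all genes. Of 15 primed pluripotency genes 2 had one (13.3%). Nodal, a TGF-beta family ligand, had a site with H3K27ac (Klf4 folds 8.66 and 6.74, H3K27ac folds 27.3 and 24.5), and Dnmt3a, a DNA methyltransferase, had one without (8.66 and 6.07). Both had equal Klf4 folds in list 1. The nearest mitotic H3K27ac region to the Dnmt3a site was 103.5 kb away, and no asynchronous H3K27ac list had a peak there. Among LIF, Wnt and Bmp signalling genes 3 of 17 (17.6%, against 7.73% of all genes) had a site with H3K27ac (Lifr, Ctnnb1 and Tcf7l1). Id3, a Bmp target, had a site without mitotic H3K27ac, chr4:136146789-136147243, with Klf4 folds of 6.74 and 5.08. That site had asynchronous H3K27ac folds of 18.3 and 15.1, and peaks in all 4 mitotic Oct4 and Sox2 lists, at folds between 4.25 and 14.03.

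Mitotic Oct4 and Sox2 peaks, from project EC-EA-3702, were read at the same classes. At least 1 Oct4 list had a peak at 15.3% of Klf4 sites with H3K27ac and 12.8% of those without, with overlapping intervals (13.5 to 17.3 and 9.98 to 16.3). For Sox2 the shares were 18.02% and 12.6%. At H3K27ac regions the separation was wider: Oct4 was at 19.1% of regions with Klf4 and 4.71% of those without, and Sox2 at 21.6% and 4.74%. Regions with Klf4 were wider and stronger, and the part of width in these shares was not tested.

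Across lists, mitotic Klf4 peaks lay in mitotic H3K27ac more often than mitotic Oct4 and Sox2 peaks did. The shares were 58.3%, 58.2% and 48.5% in the Klf4 lists (55.0% ± 5.63, SD, n = 3). They were 40.5% and 25.5% for Oct4 and 30.4% and 37.3% for Sox2 (33.4% ± 6.79, SD, n = 4). No Klf4 list overlapped the range of the other 4. The difference of 21.6 points had p = 0.0286 in a two-sided exact permutation test over 3 and 4 lists, which is the smallest p that 35 splits can give. Without any 1 of the Klf4 lists the p was 0.0667, and without any 1 of the Oct4 and Sox2 lists it was 0.1, in each case the smallest possible. The only Klf4 list from the same project as the Oct4 and Sox2 lists was the lowest of the 3, at 48.5%, and 1 list could not be tested. The H3K27ac lists came from the project of the other 2 Klf4 lists, so that factor and project are partly mixed in this comparison.

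**Figure D5:**
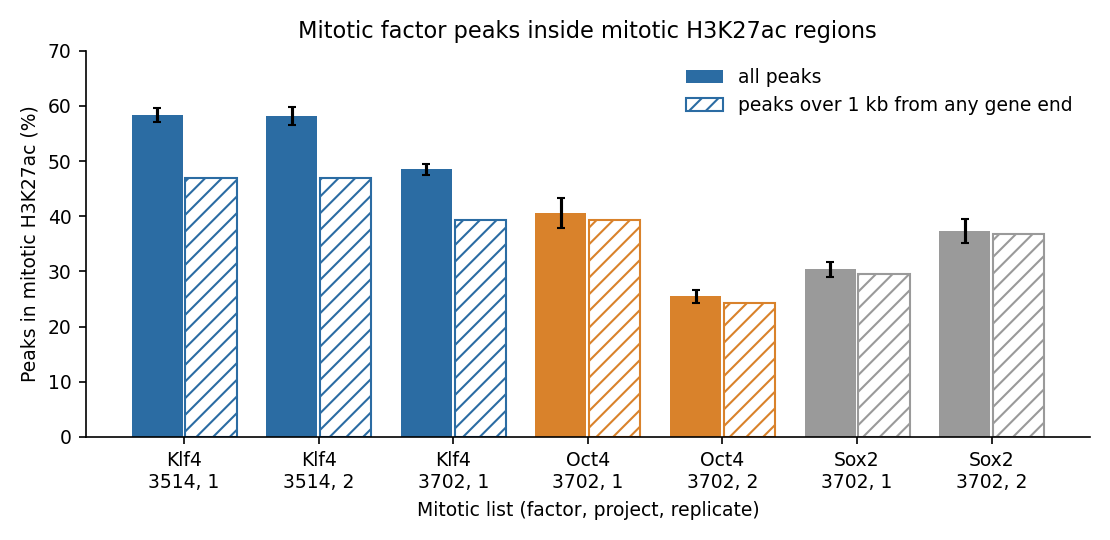
Share of the peaks of each of 7 mitotic lists inside a mitotic H3K27ac region (vertical axis, percent), for all peaks (filled bars, with Wilson 95% intervals) and for peaks over 1 kb from any gene end (hatched bars); labels give the factor, project and replicate. The 3 Klf4 lists sit at 48.5% to 58.3% and the Oct4 and Sox2 lists at 25.5% to 40.5%; away from gene ends the lowest Klf4 list and the highest Oct4 list both sit at 39.2% to 39.3%.

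The factors also differed in position. Of the Klf4 peaks 44.6%, 45.6% and 31.5% were near a gene end, against 2.53% to 5.22% of Oct4 and Sox2 peaks. Over peaks away from gene ends the shares in H3K27ac were 46.9%, 46.9% and 39.2% (Klf4 lists), 39.3% and 24.2% (Oct4 lists), and 29.6% and 36.8% (Sox2 lists). The means were 44.3% ± 4.41 (SD, n = 3) and 32.4% ± 6.88 (SD, n = 4), and the groups overlapped at a single pair of lists. The difference of 11.9 points had p = 0.0857 in the same exact permutation test and did not pass 0.05.

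The classes were uneven over chromosomes. Chromosome 8 held 210 of the 1905 Klf4 sites (11.0%) and 6.37% of the H3K27ac regions, and 10.5% of its H3K27ac regions had Klf4. The X chromosome held 5 Klf4 sites, and 3 of its 527 H3K27ac regions (0.569%) had Klf4. Among the Klf4 lists, 0.556% and 0.659% of peaks were on the X chromosome in project EC-DG-3514, against 1.05%, 1.15% and 1.36% in asynchronous cells and 1.37% in the mitotic list of project EC-EA-3702. The cause of either difference was not tested.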

How the data were processed

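According to the submitters' processing notes, the tools were cutadapt 1.8.1 (trimming), Bowtie2 2.2.5 (alignment, build mm10), deepTools 2.3.6 and MACS2 2.1.1 (peak calling). Each deposited list gives the peaks of 1 library, with the authors' enrichment as a fold (ratio) and their p and q as −log10 values. All listed peaks had a −log10 p of at least 5. Names of peaks in the 2 Klf4 lists number up to 24405 and 52917, so that 23.6% and 7.17% of numbered peaks were listed, by a rule not given in the sources used here. The project has 1 mitotic input, and its use in calling is likewise not given. Depth was unknown, and folds were ranked only within a list. Where folds of several lists are printed for a locus, they are not on a common scale and do not measure change between lists.

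Computation used Python 3.11.15 with pandas 2.3.3, numpy 2.4.6, scipy 1.17.1 and matplotlib 3.10.9. Peaks of an antibody that overlapped by 1 bp or more were merged, and the same minimum overlap defined the classes. Genes and promoter windows came from RefSeq tables of GRCm38.p6, with a listed start for 17491 of 21883 protein-coding genes. Positions are 1-based. All 217 gene names of the 13 lists matched. The count of splits in the exact permutation test was checked on a small made-up example, and overlap, distance and merging on simulated intervals.

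Named regions were the 5 strongest of each of 6 classes, the 3 widest H3K27ac regions with and without Klf4, sites within 20 kb of naive pluripotency genes, and at most 4 examples of each other list, outside chromosome 18. Members and lists were chosen with earlier results of these data known. Lists of the cell mix and of asynchronous Oct4 and Sox2 were used only for chromosome shares and totals.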

Additional observations from a re-analysis of the deposited data

How the results depend on the processing

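The 10 main values were recomputed under 96 settings in all, counting each value and setting, and no difference changed sign. Of these, 48 moved from the main value by at least the SD of the 2 single-list values. For the comparison of factors the rule was p below 0.05 (exact permutation test), which 7 settings no longer met. The remaining 41 were the same by these rules. The share of Klf4 sites with H3K27ac (69.9%) was 61.3% with the midpoint required inside, 72.3% with regions widened, 66.1% with a −log10 q of at least 5, 62.4% with a peak in either list and 69.2% without chromosome 8 (chosen after seeing the data). The share of H3K27ac regions with Klf4 (5.90%) was 4.88%, 6.37%, 0.460% and 11.5% under the first 4 of these and 5.18% with lists of equal length. The difference in H3K27ac strength (21.4) was 24.5 with midpoints, 24.5 with the stricter q and 6.65 within width quintiles. The gene end difference of Klf4 sites (20.7 points) was 11.5 with midpoints, 27.8 with the stricter q, 17.3 within width quintiles and 19.6 with a window of 2.5 kb. That of H3K27ac regions (30.0) was 1.29 with the stricter q, 33.2 within width and 24.9 within strength quintiles. The difference in the Klf4 list of project EC-EA-3702 was 36.8, and that in asynchronous H3K27ac 29.4, with the stricter q, and the latter was 31.5 within strength quintiles. The stricter q left 109 Klf4 sites.

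Leaving out each list in turn, the share of Klf4 sites with H3K27ac ranged from 58.2% to 73.5% and that of H3K27ac regions with Klf4 from 4.16% to 13.9%. The differences ranged from 0 to 23.9 (Klf4 strength), 18.9 to 31.9 (H3K27ac strength), 15.7 to 30.6 and 28.4 to 33.9 (gene ends), 8.46 to 22.5 (project EC-EA-3702), 3.58 to 25.9 (asynchronous Klf4) and 29.7 to 37.7 (asynchronous H3K27ac). The difference between Klf4 and the Oct4 and Sox2 lists ranged from 18.9 to 24.8, with p from 0.0667 to 0.1, where fewer lists raise the smallest possible p. With lists cut to 1246 peaks it was 27.6 with p = 0.0286 (exact permutation test).

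No paired analysis was possible because the only tested comparison sets Klf4 lists of 2 projects, both numbered from 1, against lists of 1 project, and the other values come from no test. The cause of each change was not tested.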
